A study of Mus musculus with 12 samples.

Results

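The zinc finger protein genes are described here by 47 m6A peaks, out of 1233 that the authors listed as different between β-Mettl3-KO and control islets. A peak was taken when its gene symbol began with Zfp, Znf, Zbtb, Zkscan, Zscan, Zc3h, Zmym, Zmiz or Zfhx. The 47 peaks carried 39 symbols and 40 gene identifiers, with 33 peaks under Zfp, 8 under Zbtb, 4 under Zc3h and 2 under Zkscan. The other 5 prefixes had no peak among those listed. Pancreatic islets came from C57BL/6 mice of 8 weeks on normal chow. The KO mice were Mettl3 flox/flox with RIP-Cre, a Cre transgene under an insulin promoter, so that deletion was aimed at the β-cells and the other islet cells were not targeted. The control mice were Mettl3 flox/flox, and their label names no Cre. RNA of 12 KO mice and of 9 control mice was combined into 3 pools per genotype. Each genotype had 3 m6A immunoprecipitate (IP) libraries and 3 input libraries. They were matched here by the number in their titles, and no label says that same-numbered libraries come from the same pool. A pool mixes the RNA of several mice, so the spread given is between pools and not between mice.

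N6-methyladenosine is written on mRNA by a complex whose catalytic subunit is METTL3, mostly at adenosines in the sequence context DRACH (D is A, G or T, R is A or G, H is A, C or T). The mark collects near stop codons and in long internal and last exons, and it is known for affecting how long an mRNA persists. C2H2 zinc finger proteins form the largest family of mammalian transcription factors. Each finger folds around a zinc ion and reads a few bases of DNA, and successive fingers are joined by a short conserved linker. Genes of this family often encode the whole finger array in one long last exon, so the array lies next to the stop codon. Many carry an additional domain, such as BTB, which binds corepressors, SCAN, which pairs proteins, or KRAB, which recruits a repressive chromatin complex. CCCH proteins have another kind of finger and bind RNA.

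The RNA under several of the peaks showed the finger array directly. The linker was searched on the sense strand of the spliced transcript as the 14 letters ACNGGNGANAANCC, a spelling of its conserved residues. It occurred 56 times in 11 of the 47 zinc finger peaks (23.4%), against 1.3% of all listed peaks. Peaks differ in width, with medians of 1080 nt for zinc finger peaks and 630 nt for all listed peaks. All 45 neighbouring pairs of linkers inside a peak were a multiple of 84 nt apart, and 32 pairs were exactly 84 nt apart, which is the length of 1 finger with its linker. When the lysine codon of the linker is AAA, the linker ends in AAACC, which is itself a DRACH spelling, and 27 of the 56 linkers did so. The following stretches run from one linker to the next, and the capitals mark the linkers. They are given 5′ to 3′ on the mRNA strand, from GENCODE M21 transcripts on GRCm38, and are shown because the first has AAACC in both linkers and the third in neither.
Zfp248, chr6:118429332-118429429, minus strand: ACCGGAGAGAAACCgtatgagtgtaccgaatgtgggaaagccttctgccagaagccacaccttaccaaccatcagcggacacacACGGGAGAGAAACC
Zfp719, chr7:43590079-43590176, plus strand: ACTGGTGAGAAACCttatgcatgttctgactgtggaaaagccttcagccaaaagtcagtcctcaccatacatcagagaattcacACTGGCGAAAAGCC
Zfp810 peak 1, chr9:22278901-22278998, minus strand: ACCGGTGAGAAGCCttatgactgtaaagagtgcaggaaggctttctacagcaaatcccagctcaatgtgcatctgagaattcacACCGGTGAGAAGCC
Zfp2, chr11:50900751-50900848, minus strand: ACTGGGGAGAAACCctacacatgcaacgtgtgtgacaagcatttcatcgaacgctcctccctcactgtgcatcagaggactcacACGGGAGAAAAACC

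DRACH was found in the 100 nt at the spliced midpoint of 44 of the 47 zinc finger peaks (93.6%), against 93.3% of all listed peaks, and the shorter GGAC in 29.8% against 43.3%. The mean number of DRACH in that window was 1.85 ± 1.06 in zinc finger peaks and 2.49 ± 1.49 in all listed peaks (SD over peaks). Over the whole spliced peak every zinc finger peak held DRACH, with a median of 2.32 per 100 nt against 2.36. The DRACH nearest the midpoint is shown in capitals for 5 peaks that the results below turn on, from the same transcripts. A spelling that fits the motif is not by itself a methylated site, since the fragments of about 100 nt do not resolve single bases.
Zfp292 peak 4, chr4:34805179-34805207, minus strand: gtgttcctgtaaAGACAgtgaaatctttg
Zfp318, chr17:46413002-46413030, plus strand: tccacaatagtcAGACAgaacagacacgg
Zfp248, chr6:118429625-118429653, minus strand: aagtgagtaacaGAACTtggggaaagcca
Zfp2, chr11:50900305-50900333, minus strand: gccctacaaatgTAACAagtgtggtaagt
Zfp810 peak 2, chr9:22277777-22277805, minus strand: acctttgcattcTGACCcatgtgagtgat

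Libraries held 16832779 to 22257803 reads in total. The median count per zinc finger peak was 534 to 754 in KO IP libraries, 685 to 1632 in control IP libraries, 99 to 116 in KO inputs and 62 to 91 in control inputs. RPM is the read count scaled to the depth of its library, and enrichment is the IP RPM divided by the input RPM of the pool with the same number. Of the 282 input counts of the zinc finger peaks, 36 were 30 or less, 28 of those were odd numbers and the lowest was 1, so enrichment of the weakest peaks is uncertain. Mettl3 itself was not among the analysed peaks, and the deletion was not checked here.

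All 47 zinc finger peaks were less enriched in KO islets than in control islets on average, and their RNA was still immunoprecipitated in the KO. The authors' deposited table listed every one of them as lower in KO, as it did 92.9% of all listed peaks. The median enrichment over the 47 peaks was 6.99, 5.12 and 5.36 in KO pools 1, 2 and 3, against 7.8, 13.8 and 17.5 in control pools 1, 2 and 3. The KO pools thus lay close together at 5.83 ± 1.02, and the control pools were higher and spread over a wider range at 13.1 ± 4.91 (SD, n = 3 pools each). Over all listed peaks the pool medians were 4.47, 3.44 and 3.42 in KO and 5.23, 8.09 and 9.27 in control, so zinc finger peaks stood above the listed average in both genotypes. In KO islets 46 of the 47 peaks (97.9%) kept an enrichment above 1 in all 3 pools, against 91.7% of all listed peaks. The exception was Zfp810 peak 2, with 0.909 in KO pool 3.

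**Figure D1:**
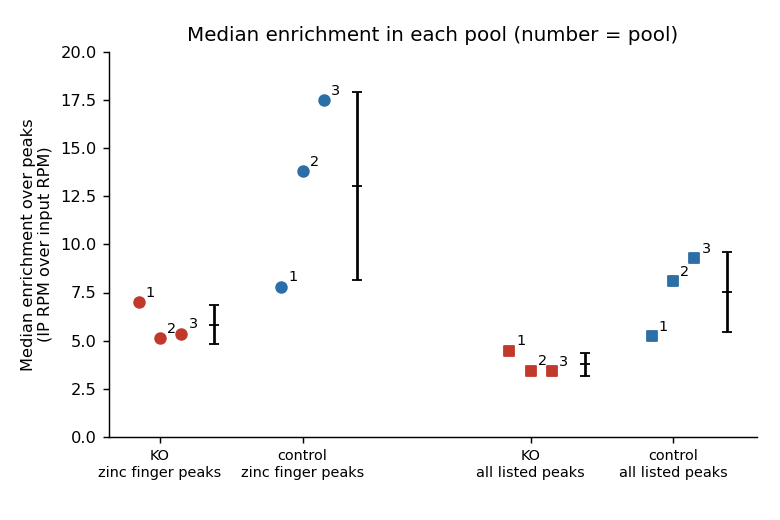
Median enrichment (IP RPM over input RPM) over the 47 zinc finger peaks (circles) and over all 1233 listed peaks (squares) in each pool, KO left of control, with the pool number beside each point and the mean and SD of 3 pools as black bars. The KO medians of zinc finger peaks lie between 5.12 and 6.99 and control pool 1, at 7.8, lies nearest to them.

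Enrichment fell past an adjusted p of 0.05 at 30 of the 47 zinc finger peaks, in 25 genes, and rose at none (edgeR's quasi-likelihood test, Benjamini-Hochberg adjustment over 1233 peaks). Among all listed peaks 55.6% fell and 2.27% rose by the same test, and the list was itself chosen by the authors on these libraries for a difference, so the share of falls is a description of that choice. No zinc finger peak rose at an unadjusted p under 0.05 either, and DESeq2 called no rise. The median log2 change in enrichment was -1.11 over the zinc finger peaks and -1.02 over all listed peaks. The enrichment of all 3 control pools lay above that of all 3 KO pools at 23 of the 47 peaks, against 53.5% of all listed peaks. The opposite order occurred at none, against 3.00%.

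The call count depended on single pools and on the scaling. Without KO pool 1, 2 or 3 it was 31, 2 and 5, and without control pool 1, 2 or 3 it was 43, 4 and 8. Over all listed peaks the falls numbered 686 with all pools. They were 638, 91 and 111 without KO pool 1, 2 or 3, and 976, 168 and 141 without control pool 1, 2 or 3, so the whole list swung too. Control pool 1 stood apart from the other control pools. Its enrichment lay within the range of the KO pools at 23 of the 47 peaks and below KO pool 1 at 19. These 2 counts were not made over all listed peaks. Its IP RPM was below that of control pools 2 and 3 at 44 of the 47 (93.6%), against 84.7% of all listed peaks. Scaled by TMM on the listed peaks themselves, which assumes that most of them do not change, edgeR called no fall and 2 peaks passed at an unadjusted p under 0.05. The median change was then -0.15 for zinc finger peaks and -0.07 for all listed peaks, and 15 of the 47 estimates were above 0. All directions below refer to the scaling by total reads.

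**Figure D2:**
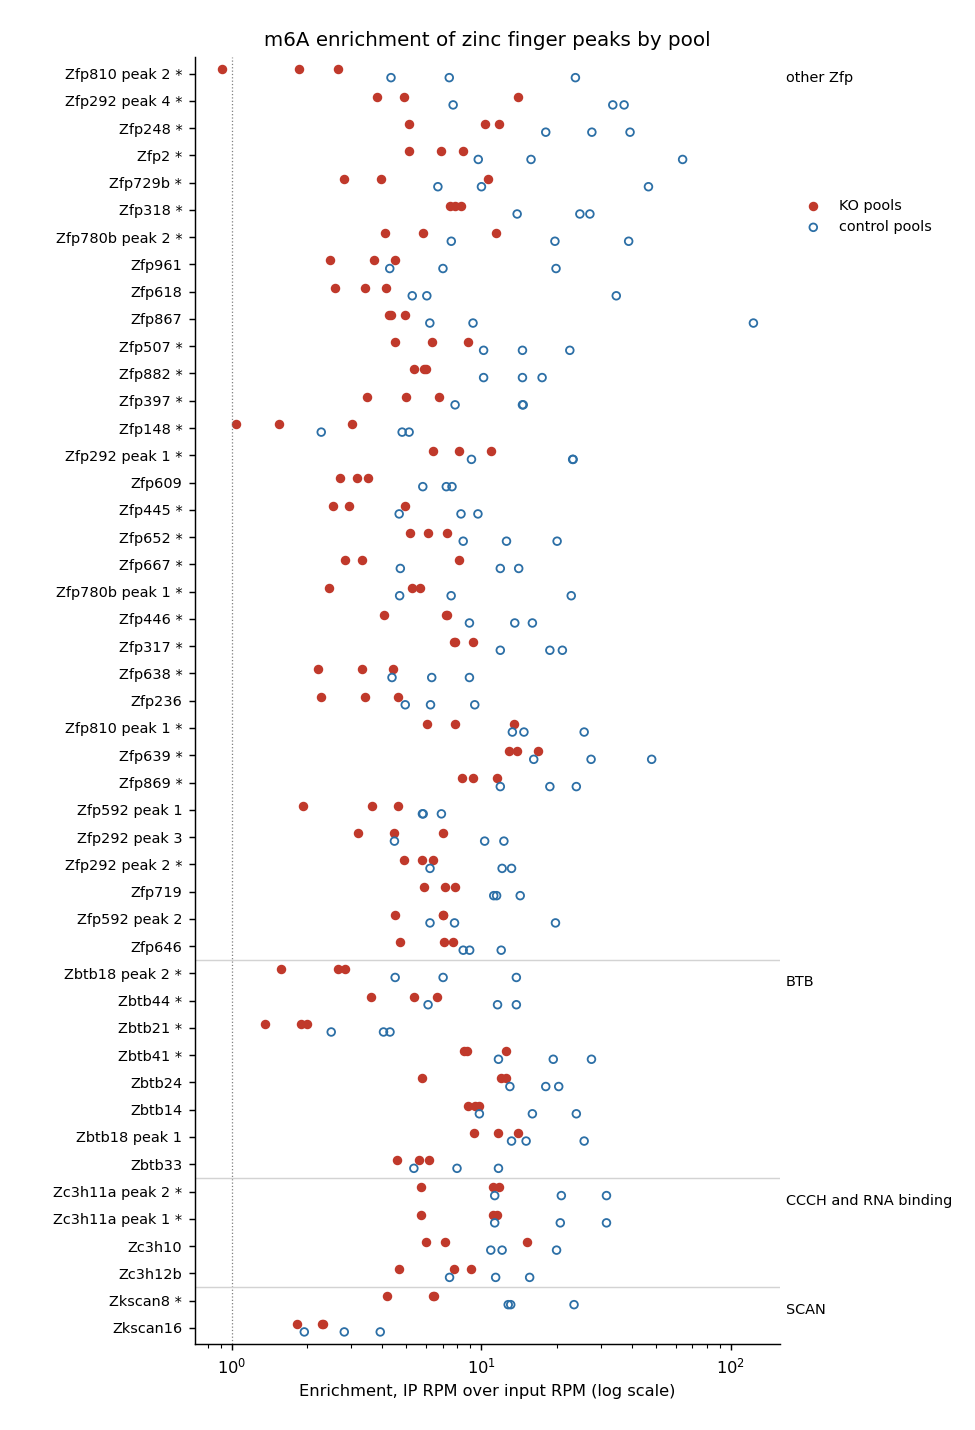
Enrichment (IP RPM over input RPM, log scale) of each of the 47 zinc finger peaks. The 3 KO pools are filled (upper) and the 3 control pools are open (lower). Peaks are grouped by the prefix of the gene symbol and ordered by fitted change, with * where enrichment fell at adjusted p under 0.05. The KO mean lies below the control mean at all 47 peaks, and 1 control value of Zfp867, from an input count of 1, lies far to the right. With TMM on the listed peaks no peak is called and 15 of the 47 changes are above 0.

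Peaks under Zfp symbols numbered 33, of which 23 fell in enrichment and none rose, against 55.6% and 2.27% of all listed peaks. Their median log2 change was -1.15. The groups used here follow the gene symbol, and the domains of the proteins were not looked up. The smallest p of all 47 belonged to Zfp292 peak 4, at the stop codon of a gene for a very large zinc finger transcription factor (chr4:34804642-34805782, ENSMUSG00000039967). Its enrichment was 14, 4.9 and 3.8 in the KO pools and 7.7, 37.3 and 33.6 in the control pools. Control pools 2 and 3 were thus far above every KO pool, while control pool 1 lay inside the KO range. The log2 change was -1.93 (SE 0.41, adjusted p = 0.00026, edgeR). It was the only one of the 30 falls that was also called whichever single pool was left out.

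Zfp2, a C2H2 protein with 11 linkers inside its peak, had enrichment of 8.42, 5.14 and 6.9 in KO and 9.71, 64 and 15.8 in control, a log2 change of -1.62 (SE 0.46, adjusted p = 0.0055, edgeR). The groups did not overlap, and the value of 64 came with the lowest input of the 6 pools, 0.773 RPM. Zfp318, a nuclear matrin-type zinc finger protein that mature B cells need to make IgD, had enrichment of 8.31, 7.51 and 7.85 in KO and 13.9, 24.8 and 27.2 in control. Its KO pools were nearly equal and all lay below the control pools, with a log2 change of -1.47 (SE 0.42, adjusted p = 0.0061, edgeR). Zfp248 had 10.3, 5.12 and 11.8 in KO and 18.1, 39.4 and 27.7 in control, also without overlap, and a log2 change of -1.76 (SE 0.53, adjusted p = 0.0074, edgeR).

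Zfp882 was even among the KO pools, with enrichment of 5.88, 6 and 5.36, and more spread in control, with 10.2, 14.6 and 17.5. The groups did not overlap, and Zfp882 fell by 1.33 on the log2 scale (SE 0.44, adjusted p = 0.012, edgeR). Zfp729b had 10.6, 2.82 and 3.95 in KO and 6.69, 10 and 46.7 in control. Its groups overlapped, since KO pool 1 lay above control pools 1 and 2, and the fitted log2 change was -1.55 (SE 0.52, adjusted p = 0.014, edgeR). Genes of high input were also in this group of falls. Zfp638, which silences retroviral DNA that has not integrated, had the highest input RPM of all 47 peaks. Its enrichment was 4.43, 3.31 and 2.22 in KO and 4.38, 6.32 and 8.95 in control, a log2 change of -1.02 (SE 0.37, adjusted p = 0.02, edgeR). Zfp445, a KRAB zinc finger protein that helps keep parental imprints, had 4.94, 2.54 and 2.94 in KO and 4.68, 9.68 and 8.28 in control, a log2 change of -1.15 (SE 0.41, adjusted p = 0.017, edgeR). In both genes control pool 1 lay just below KO pool 1.

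Zfp719 and Zfp646 were not called for enrichment although their groups did not overlap. Zfp719 had enrichment of 7.86, 7.16 and 5.91 in KO and 11.5, 14.3 and 11.2 in control, with a log2 change of -0.83 (SE 0.38, adjusted p = 0.052, edgeR). Zfp646 had 7.09, 4.7 and 7.71 in KO and 12, 8.45 and 8.97 in control, and its log2 change of -0.56 (SE 0.40, adjusted p = 0.18, edgeR) was among the smallest. Both estimates were above 0 with TMM on the listed peaks, at 0.16 for Zfp719 and 0.37 for Zfp646.

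Of the 8 BTB peaks, in 7 genes, 4 fell in enrichment and none rose, against 55.6% and 2.27% of all listed peaks. Their median log2 change was -0.93. BTB zinc finger proteins are mostly transcriptional repressors. The 4 that fell were Zbtb21, Zbtb41, Zbtb44 and Zbtb18 peak 2. Zbtb21 was the least enriched of the 8, with 2, 1.89 and 1.36 in KO and 2.5, 4.3 and 4.05 in control, without overlap and with a log2 change of -1.0 (SE 0.42, adjusted p = 0.036, edgeR). Zbtb14 had enrichment of 9.76, 8.81 and 9.45 in KO and 9.81, 16 and 24 in control. Control pool 1 was level with KO pool 1, and the log2 change of -0.76 did not pass (SE 0.38, adjusted p = 0.067, edgeR). Zbtb33, known as Kaiso, which binds methylated DNA and p120 catenin, had 5.61, 6.19 and 4.6 in KO and 5.36, 7.98 and 11.7 in control, a log2 change of -0.56 (SE 0.40, adjusted p = 0.18, edgeR). The estimates of Zbtb14, Zbtb24, Zbtb33, Zbtb41 and Zbtb18 peak 1 were above 0 when scaled by TMM on the listed peaks.

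Of the 4 CCCH peaks 2 fell in enrichment, against 55.6% of all listed peaks, and these 2 are nearly the same interval. Zc3h11a, an mRNA export factor, was listed under 2 gene identifiers with intervals of 838 and 837 nt that share their reads. Peak 1 had enrichment of 11.1, 11.5 and 5.71 in KO and 11.3, 31.7 and 20.7 in control, a log2 change of -1.22 (SE 0.39, adjusted p = 0.01, edgeR). Control pool 1 again lay within the KO range. Of the 50-mers of this peak 98.9% also occur in transcripts of an overlapping gene, Gm38394, so its reads cannot be given to Zc3h11a alone. Zc3h10 had 6.02, 7.12 and 15.2 in KO and 12.1, 10.9 and 20 in control, a log2 change of -0.84 that did not pass (SE 0.40, adjusted p = 0.058, edgeR). Its peak overlaps the antisense gene Gm29585, and the counting is not stated to use strand. Zc3h12b, of the Regnase family of RNA endonucleases, had 9.07, 4.66 and 7.79 in KO and 7.45, 11.4 and 15.6 in control, a log2 change of -0.75 (SE 0.46, adjusted p = 0.12, edgeR). Scaling by TMM on the listed peaks put Zc3h10 and Zc3h12b above 0.

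Both Zkscan genes fell in IP, and 1 of them in enrichment, against 64.8% and 55.6% of all listed peaks. Zkscan8 had enrichment of 6.46, 4.17 and 6.4 in KO and 13.1, 23.5 and 12.8 in control, without overlap, and a log2 change of -1.47 (SE 0.47, adjusted p = 0.011, edgeR). Zkscan16 had 2.32, 1.82 and 2.29 in KO and 1.95, 2.82 and 3.93 in control. Its log2 change of -0.35 (SE 0.50, adjusted p = 0.49, edgeR) was the smallest of all 47 and turned to 0.56 with TMM on the listed peaks.

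A fall in enrichment can lie in the IP library, in the input library or in both. Among the zinc finger peaks 29 fell in IP and none rose, against 64.8% and 2.92% of all listed peaks. DESeq2 with the same total reads called 32 falls and no rise, against 849 falls and 43 rises over all listed peaks. In input 3 rose, against 6.00% of all listed peaks, and none fell, against 0.649%. At an unadjusted p under 0.05, edgeR had no IP rise, 10 input rises and 1 input fall among the 47. These unadjusted counts were not made over all listed peaks, so they are not read as particular to zinc finger peaks. The median log2 change was -0.71 in IP and 0.44 in input, against -0.76 and 0.22 over all listed peaks. The input estimate was above 0 at 40 of 47 zinc finger peaks (85.1%), against 71.8% of all listed peaks. With TMM on the listed peaks the input median was 0.23, against 0.01 for all listed peaks, and the IP median turned to 0.05. In bulk islet RNA more RNA of a gene per cell and more cells that express it cannot be told apart.

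Enrichment and IP both fell at 19 zinc finger peaks, enrichment alone at 11, IP alone at 10, and neither was called at 7. The shares were 40.4% for both (42.1% over all listed peaks), 23.4% for enrichment alone (13.4%), 21.3% for IP alone (22.7%) and 14.9% for neither (17.4%). These counts pair tests of one fit and share the same IP libraries.

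**Figure D3:**
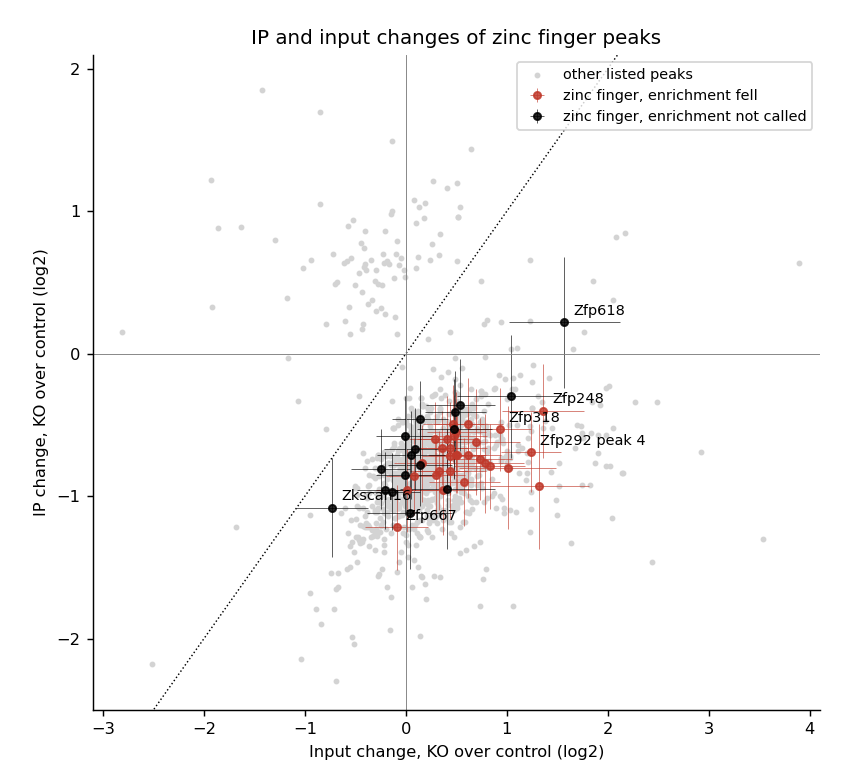
Change in input (x axis) and in IP (y axis), KO over control on the log2 scale, of the 47 zinc finger peaks with their SE, in red where enrichment fell and in black where it was not called, over the other listed peaks in grey. The dotted line marks equal changes, hence no change in enrichment, and every zinc finger peak lies below it. Zfp292 peak 4, Zfp248 and Zfp318 lie to the right, and with TMM on the listed peaks the IP change of all 3 is above 0.

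The 3 zinc finger peaks whose input rose were Zfp292 peak 4, Zfp248 and Zfp318. Zfp318 input was 7.18, 6.35 and 5.8 RPM in KO and 3.35, 3.66 and 3.09 RPM in control, without overlap, a log2 change of 0.93 (SE 0.31, adjusted p = 0.045, edgeR). Its IP was 59.7, 47.7 and 45.5 RPM in KO and 46.5, 90.6 and 83.9 RPM in control, a log2 change of -0.53 that did not pass (adjusted p = 0.081, edgeR). The input groups were thus apart while the IP of control pool 1 lay within the KO range.

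Zfp248 input was 1.65, 2.91 and 1.48 RPM in KO and 0.797, 0.67 and 0.891 RPM in control, without overlap, a log2 change of 1.36 (SE 0.41, adjusted p = 0.021, edgeR). Its IP was 17, 14.9 and 17.5 RPM in KO and 14.4, 26.4 and 24.7 RPM in control, a log2 change of -0.40 (adjusted p = 0.24, edgeR). The interval overlaps an 83-nt gene on the other strand, Gm25953. Zfp292 peak 4 input was 5.53, 13.2 and 13.7 RPM in KO and 6.27, 3.81 and 3.68 RPM in control, a log2 change of 1.24 (SE 0.30, adjusted p = 0.002, edgeR). KO pool 1 lay among the control pools here. DESeq2 with total reads did not call Zfp292 peak 4 in input, but called Zfp248, Zfp318 and Zfp618. With counts halved, or with the inputs fitted alone, edgeR called only Zfp292 peak 4 of the 47. The number of input rises was 2, 0 and 1 without KO pool 1, 2 or 3 and 5, 2 and 1 without control pool 1, 2 or 3. Over all listed peaks it was 54, 31 and 38, and 119, 38 and 47, in the same order, against 74 with all pools.

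In the opposite corner, Zkscan16 had the lowest input change, with 4.31, 3.44 and 3.45 RPM in KO and 7.18, 6.96 and 4.46 RPM in control, all KO pools below all control pools. The log2 change of -0.73 did not pass (SE 0.36, adjusted p = 0.24, edgeR), but with TMM on the listed peaks it was -0.94 and passed (adjusted p = 0.038, edgeR). Its IP was 9.97, 6.26 and 7.89 RPM in KO and 14, 19.6 and 17.5 RPM in control, a log2 change of -1.08 (SE 0.35, adjusted p = 0.0074, edgeR). Zfp719 and Zbtb14, both with fairly high input, likewise fell in IP and were not called in input. Zfp719 IP was 96.1, 83.4 and 74.6 RPM in KO and 97.2, 209 and 192 RPM in control (log2 change -0.97, adjusted p = 0.0021, edgeR). Zbtb14 IP was 131, 102 and 96.7 RPM in KO and 143, 248 and 252 RPM in control (log2 change -0.96, adjusted p = 0.0021, edgeR). In both, control pool 1 was much closer to the KO pools than to the other control pools. Zfp667, chosen after its values were seen, had the largest IP fall, with 38.8, 22 and 20.9 RPM in KO and 38, 81.5 and 71.4 RPM in control (log2 change -1.22, adjusted p = 0.00052, edgeR).

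At the other end of abundance stood Zfp867 and Zfp618, also chosen after their values were seen. In control pool 3 the input count was 1 for Zfp867 and 3 for Zfp618, so the enrichment of 123 and of 34.7 there have exact 95% intervals of 21.7 to 4890 and of 11.6 to 170, for counting error only. Neither passed for enrichment, with adjusted p of 0.07 for Zfp867 and 0.079 for Zfp618 (edgeR). Zfp618 input was 1.38, 2.24 and 1.64 RPM in KO and 0.585, 0.979 and 0.178 RPM in control, a log2 change of 1.57 (SE 0.55, adjusted p = 0.059, edgeR), and it was the only member with an IP estimate above 0 (0.22).

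Per length of peak, the RNA of zinc finger peaks was rarer than that of the listed peaks as a whole. The median input was 5.05, 4.67 and 4.85 RPM per kb in KO and 4.26, 4.74 and 3.42 RPM per kb in control. Over all listed peaks it was 10.4, 11.2 and 10.7 RPM per kb in KO and 9.42, 8.99 and 9.14 RPM per kb in control. In the authors' deposited table the fold enrichment of the peaks had a median of 25.5 for zinc finger peaks and 12.5 for all listed peaks.

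Of the genes with zinc finger peaks, 5 held more than 1 separate listed peak, which allowed the input level to be compared along 1 mRNA. The input of the peak nearest the 3′ end was divided by the summed input of the other listed peaks of the gene. For Zfp810 the ratio was 0.407, 0.482 and 0.523 in KO and 0.367, 0.0483 and 0.286 in control, and for Zbtb18, a repressor needed in cortical development, 0.217, 0.226 and 0.345 in KO and 0.215, 0.101 and 0.135 in control. In both genes all KO pools lay above all control pools, by a thin margin for Zbtb18. The 2-sided exact permutation p was 0.1 for each, the smallest that 3 pools against 3 allow, and 0.25 after adjustment over the 5 genes. The authors listed these peaks for a difference in enrichment in the same libraries, which takes in the input. The input ratios are therefore not independent of that choice, and the order of the pools is a description only. The ratio of Zfp292 was 0.103, 0.25 and 0.232 in KO and 0.147, 0.082 and 0.0923 in control, with overlap (exact p = 0.2). Zfp592 (exact p = 0.4) and Zfp780b (exact p = 0.9) overlapped too. The same ratios in IP overlapped in all 5 genes. Control pool 2 of Zfp810 rests on a peak 2 input of 0.361 RPM, the lowest of the 6 pools.

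**Figure D4:**
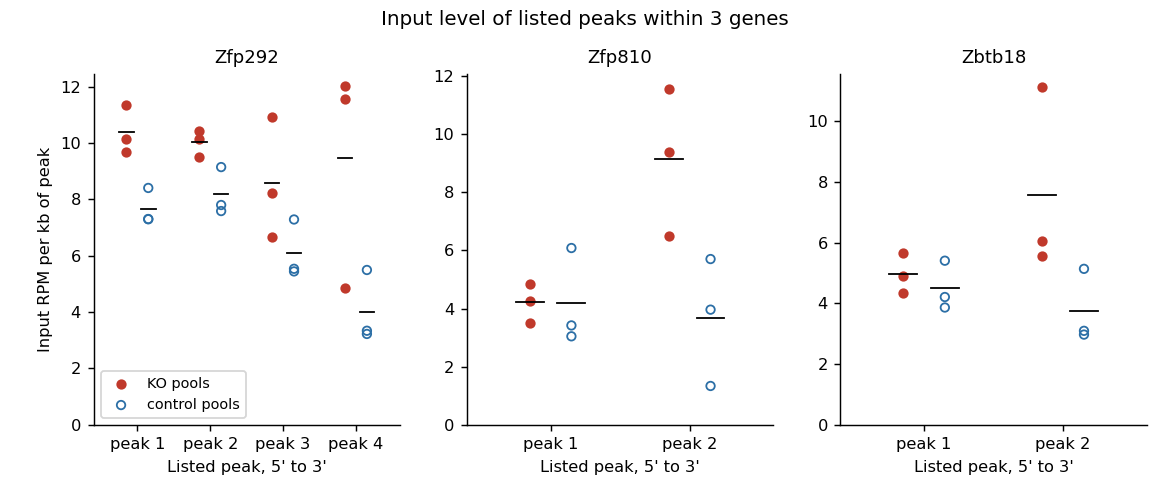
Input level in RPM per kb of peak (y axis) at each listed peak of Zfp292, Zfp810 and Zbtb18, ordered 5′ to 3′ (x axis), with KO pools filled and left, control pools open and right, and lines at the means. The last peak shows the widest gap between KO and control pools in Zfp810 and Zbtb18, and in Zfp292 KO pool 1 stays among the controls.

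Within Zfp292 the change differed in size from peak to peak. Peak 1 fell in enrichment, with 10.9, 8.13 and 6.39 in KO and 9.12, 23.2 and 23.3 in control (log2 change -1.17, adjusted p = 0.012, edgeR), and so did the 3269-nt peak 2, the widest of all 47, with 6.4, 5.8 and 4.88 in KO and 6.22, 12.1 and 13.2 in control (log2 change -0.89, adjusted p = 0.035, edgeR). Peak 3 did not pass (log2 change -0.90, adjusted p = 0.052, edgeR). Peaks 2 and 3 were above 0 with TMM on the listed peaks, at 0.10 and 0.07. The differences between the peaks were not tested.

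Both peaks of Zfp810 fell. Peak 1, over the finger array and stop codon, had enrichment of 13.5, 7.84 and 6.07 in KO and 13.3, 14.8 and 25.8 in control (log2 change -0.96, adjusted p = 0.04, edgeR). Peak 2, in the 3′UTR, had 2.65, 1.85 and 0.909 in KO and 4.34, 23.8 and 7.43 in control (log2 change -2.25, SE 0.66, adjusted p = 0.007, edgeR), the largest of the 47 and with no overlap. Neither part passed alone, with log2 changes of -0.93 in IP and 1.32 in input (adjusted p = 0.052 and 0.085, edgeR). The control value of 23.8 rests on 7 input reads. Both peaks of Zfp780b fell as well. Peak 1 had 5.26, 5.68 and 2.46 in KO and 4.7, 7.56 and 22.9 in control (log2 change -1.11, adjusted p = 0.036, edgeR), and peak 2 had 11.4, 5.84 and 4.1 in KO and 7.57, 38.9 and 19.7 in control (log2 change -1.47, adjusted p = 0.0067, edgeR). The groups overlapped at both peaks. Part of their sequence is shared with other genes, so their reads may include those of near copies. Zbtb18 peak 2, in the 3′UTR, fell with 2.67, 2.84 and 1.58 in KO and 4.51, 7.02 and 13.8 in control (log2 change -1.80, adjusted p = 0.018, edgeR). Its coding peak 1 did not pass, with 14, 11.7 and 9.37 in KO and 13.2, 15.1 and 25.8 in control (log2 change -0.60, adjusted p = 0.14, edgeR), and was above 0 with TMM. Neither peak of Zfp592, a subunit of a chromatin complex with ZMYND8, passed, with log2 changes of -0.90 and -0.76 (adjusted p = 0.076 and 0.097, edgeR).

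Zinc finger peaks lay in coding sequence more than listed peaks did as a whole. At the spliced midpoint, placed on GENCODE M21 transcripts, 32 of 47 (68.1%) were coding, 14 (29.8%) were in the 3′UTR and 1, Zfp445, was in the 5′UTR of the transcript it covered best. Among all listed peaks 42.7% were coding and 47.5% in the 3′UTR. The midpoint was in the last exon at 40 of 47 (85.1%, against 77.3%), in an exon over 1000 nt at 43 of 47 (91.5%, against 76.7%), and the median length of that exon was 3304 nt against 2053.5 nt. The peak covered the stop codon at 22 of 47 (46.8%, against 49.9%). The authors' annotation of the genomic peak centre placed 18 of 47 in the 3′UTR, 13 in the last exon and 10 in an intron or between genes. All 10 of the last lay in an exon of a coding transcript when spliced, 8 of them in coding sequence.

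**Figure D5:**
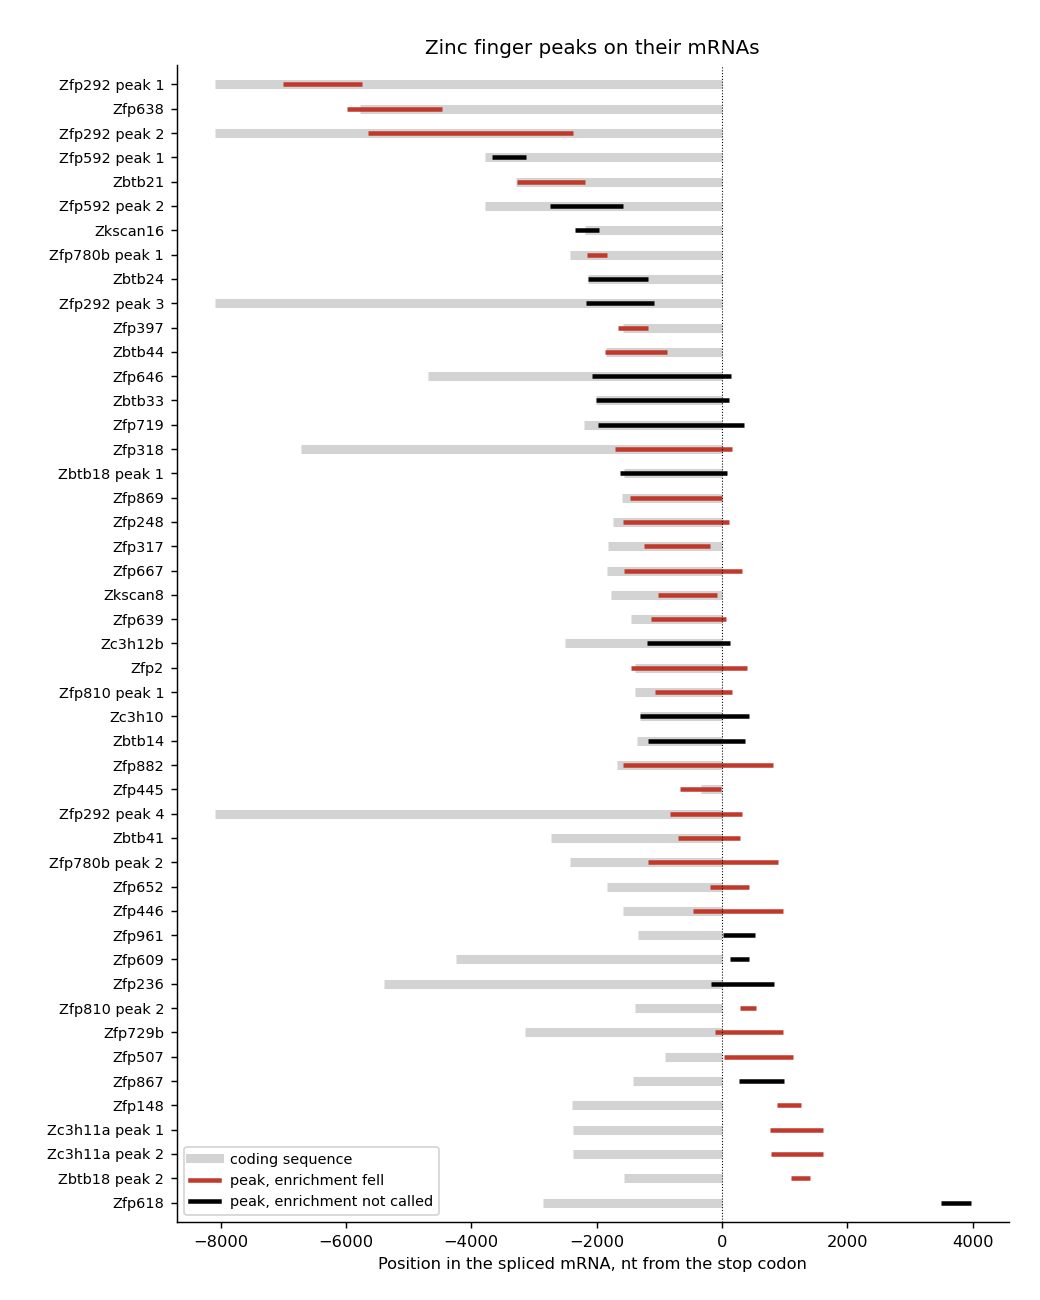
Position of the 47 zinc finger peaks on their spliced mRNAs, in nt from the stop codon (x axis, negative upstream), with coding sequence in grey and the peak in red where enrichment fell and in black where it was not called. The midpoint of 32 of the 47 peaks lies in coding sequence and 22 of 47 cross the stop codon. With TMM on the listed peaks no peak is called.

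Enrichment fell at 20 of the 32 coding peaks and at 9 of the 14 peaks in 3′UTRs, and the fitted log2 change had a median of -0.96 and of -1.29 in these 2 sets. Over all listed peaks 53.9% of coding and 58.5% of 3′UTR peaks fell. The position classes were not compared by a test. Among the 11 peaks with linkers, Zfp2 had 11 linkers, Zfp869 had 9, Zfp719 and Zfp810 peak 1 had 8 each, Zfp248 had 6 and Zkscan8 had 5. In Zfp248 all 6 linkers ended in AAACC and in Zfp810 peak 1 none did. Enrichment fell at both of these peaks and was not called at Zfp719. Whether the spelling of the linkers bears on the change was not tested.

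Zinc finger genes with other names were looked up from lists. Of 101 further zinc finger transcription factors, 14 genes with 15 peaks were listed, and enrichment fell at 11 of the 15 peaks and rose at none, against 55.6% and 2.27% of all listed peaks. These lists too hold only peaks that the authors selected for a difference. Glis3 and St18 among them are known in islets. Glis3, a regulator of insulin transcription, fell by 1.18 on the log2 scale (adjusted p = 0.017, edgeR), and St18, a neuroendocrine factor, by 1.17 (adjusted p = 0.025, edgeR). Of 38 further RNA-binding zinc finger genes 6 were listed, and enrichment fell at 5 of their 6 peaks, against the same 55.6%. Among them the splicing regulator Mbnl1 fell by 1.90 (adjusted p = 0.0065, edgeR) while its input rose by 1.20 (adjusted p = 0.045, edgeR). The partners through which KRAB proteins repress had 3 listed genes of 22, of which Setdb1, a histone methyltransferase, fell (log2 change -1.12, adjusted p = 0.031, edgeR) and Chd4 and Atf7ip did not pass (log2 changes 0.60 and -0.58). Of 16 corepressors and cullin partners of BTB proteins 2 were listed and neither passed for enrichment. Among 10 subunits and partners of the methylating complex 3 were listed, of which Rbm15 (log2 change -1.57, adjusted p = 0.0097, edgeR) and Wtap (log2 change -1.16, adjusted p = 0.025, edgeR) fell.

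Some markers of islet cell types differed in the same libraries. The summed input of 6 listed peaks in 5 β-cell marker genes was 287 to 338 RPM in KO pools and 523 to 564 RPM in control pools, while the median input of zinc finger peaks was 5.26 to 5.63 RPM in KO pools and 3.68 to 4.69 RPM in control pools. Of the 5 β-cell marker genes only Mafa passed in input, with log2 changes of -1.68 and -2.51 at its 2 peaks (adjusted p = 3.9e-05 and 2e-18, edgeR). Nkx6-1, Slc30a8 and Ucn3 had input changes of -0.40, -0.40 and -0.35 that did not pass (adjusted p = 0.38, 0.4 and 0.47, edgeR), and Pcsk1 had 0.14 (adjusted p = 0.84, edgeR). The 5 listed peaks of 4 endothelial markers were all listed as higher in KO, with a summed input of 42.4 to 84.2 RPM in KO and 77.8 to 84.6 RPM in control. Stromal, immune and acinar or ductal markers had 1 listed gene each, and other endocrine markers had none. The part of these differences in the zinc finger results was not tested.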

How the data were processed

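Islet RNA of KO and control mice was measured by m6A immunoprecipitation and sequencing (read pairs of 150 bp) in 12 libraries, 3 IP and 3 input per genotype. Among tools, the submitters' processing notes list HOMER 4.9.1, BWA 0.7.12 and fastp 0.19.11, and the build is GRCm38.p6. How peaks were called is not given in the sources used here. As 1 table of differential peaks, the authors deposited a whole-number count per peak and library and the total reads of each library. The RPM columns are counts scaled by the authors to library totals, per the file headers, and match the deposited counts and totals to within 0.0005. The authors' fold enrichment is a ratio, their log2 fold change compares KO with control, and their FDR, at most 0.00562 for the zinc finger peaks, is deposited as a log10 score. A further 6 deposited columns, of enrichment in each pool, were left out.

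Zinc finger peaks were found by symbol, and members, lists and tests were chosen with earlier results of these data known. All 1233 peaks were fitted with edgeR 4.0.16 (R 4.3.3), using quasi-likelihood with 1 coefficient per group (4 groups) and library sizes set to the deposited totals, without further scaling. Enrichment change is the difference between genotypes in log2 IP over input, and IP and input changes are contrasts of the same fit. P-values were adjusted by Benjamini-Hochberg over 1233 peaks (threshold 0.05), and the SE is the absolute log2 change divided by the square root of its F. The common dispersion was 0.0643. In counts simulated for 1233 peaks with 200 changed, 20% of enrichment changes of log2 size 1 and 93% of size 2 were recovered, and 61% and 100% of input changes. IP and input were matched by the number in their titles, and deviations of same-numbered libraries correlated at -0.07 to 0.06, so the number did not serve as a block in the main model. The labels say that the 3 samples of a genotype are independent biological replicates, each a pool of mice.

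Alternatives were TMM on the listed peaks, DESeq2 1.42.0 with its own size factors and with size factors from total reads, at least 10 counts in at least 3 libraries, counts halved and rounded, a replicate block, and leaving out each pool. Peaks were placed on GENCODE M21 transcripts by gene identifier, on the coding transcript that covers most of the peak, and motifs were counted in that spliced sequence. Shared sequence was measured as the percentage of 50-mers that also occur in transcripts of other genes. Within-gene ratios used a 2-sided exact permutation test over pools (scipy 1.17.1). Named genes are those with the 10 smallest enrichment p-values, those called in input, and the 3 of highest mean input RPM per symbol group. Those with several peaks and the 3 with the smallest change are also named. The median of zinc finger peaks per pool was given no test, because the members were chosen with results known. Intervals cover counting error only.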

Additional observations from a re-analysis of the deposited data

How the results depend on the processing

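Halving the counts, the filter on low counts and DESeq2 with size factors from total reads gave 30, 30 and 33 enrichment falls, against 30. Over all listed peaks they gave 691, 686 and 770, against 686. TMM on the listed peaks, and DESeq2's own size factors, gave 0 enrichment falls and 0 IP falls, the median log2 changes were -0.15 and -0.13 for enrichment and 0.05 and 0.04 for IP, and input had 1 fall. Over all listed peaks, in that order, there were 9 and 17 enrichment falls, 27 and 47 IP falls, and 32 and 66 input falls. These scalings set the typical listed peak to no change by construction. Under both, in that order, enrichment turned to 0.02 and 0.05 for Zbtb41, 0.35 and 0.38 for Zbtb18 peak 1, 0.05 and 0.07 for Zbtb24, 0.20 and 0.23 for Zbtb14, 0.39 and 0.42 for Zbtb33, 0.13 and 0.15 for Zc3h10, 0.21 and 0.23 for Zc3h12b, 0.56 and 0.59 for Zkscan16, 0.03 and 0.05 for Zfp639, 0.07 and 0.09 for Zfp292 peak 3, 0.10 and 0.12 for Zfp292 peak 2, 0.16 and 0.18 for Zfp719, 0.14 and 0.17 for Zfp592 peak 2, 0.37 and 0.40 for Zfp646, and 0.06 and 0.08 for Zfp869. With DESeq2's own size factors Zfp592 peak 1 was at 0.01 and Zfp810 peak 1 at 0.02. IP turned to 0.23 and 0.22 for Zfp318, 0.11 and 0.10 for Zfp292 peak 4, and 0.37 and 0.35 for Zfp248. With a replicate block, which the pairing check did not support, there were 21 enrichment falls, 19 IP falls and 2 input rises. Over all listed peaks the block gave 520, 627 and 55. Leaving out 1 pool gave 2 to 43 enrichment falls (median log2 change -1.32 to -0.92) and 4 to 44 IP falls (median -1.03 to -0.54). Input rises then numbered 0 to 5 (median 0.35 to 0.47). Over all listed peaks these refits gave 91 to 976 enrichment falls, 245 to 1037 IP falls and 31 to 119 input rises. The cause was not tested. With counts halved, or the inputs fitted alone, 1 input rise was called, against 57 and 94 over all listed peaks. The IP libraries alone gave 21 IP falls, against 648 over all listed peaks. DRACH was in 93.6% of windows, in 100% of whole peaks, and GGAC in 29.8%. The annotations placed 18 or 14 peaks in 3′UTRs. With 3 pools a genotype and input counts down to 1, precision is limited at the weakest peaks.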

Other observations

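A further pair of listed peaks lies in zinc finger genes by their identifier but carries no symbol in the table, and is not among the 47. Zfp644 (chr5:106624361-106637971) had enrichment of 5.27, 3.28 and 2.29 in KO pools and 4.46, 8.86 and 7.24 in control pools, a log2 change of -1.04 (SE 0.37, adjusted p = 0.018, edgeR over all listed peaks). Control pool 1 lay within the KO range. Zkscan3 (chr13:21387363-21388472) had 6.68, 3.61 and 4.06 in KO pools and 8.35, 12.3 and 14.6 in control pools, without overlap, a log2 change of -1.35 (SE 0.43, adjusted p = 0.011, edgeR). Both fell in IP (log2 change -0.64 each, adjusted p = 0.028 and 0.046, edgeR) and neither passed in input (log2 change 0.40 and 0.71, adjusted p = 0.4 and 0.18, edgeR). Both midpoints lie in coding sequence.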
